A study of Homo sapiens with 8 samples.

Results

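The genes described here were 35 aminoacyl-tRNA synthetases, taken as every row of the deposited gene table whose Ensembl identifier carries one of 35 listed symbols, and all 35 were found among the 37441 genes of the table. The list held 19 genes of cytosolic enzymes and 16 genes of mitochondrial ones, whose symbols end in 2. All 35 passed the filter on low counts, which asked for 10 counts over the 8 libraries together and kept 18203 genes.

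An aminoacyl-tRNA synthetase joins an amino acid to its matching transfer RNA, and so supplies the ribosome with charged tRNA. The letter before ARS in a symbol names the amino acid, for example G for glycine in GARS1. In animal cells several of the cytosolic enzymes sit in the multisynthetase complex, held together by the scaffold proteins AIMP1, AIMP2 and EEF1E1, and the rest act outside it. Mitochondria use their own set, encoded in the nucleus, although GARS1 and KARS1 serve both compartments. Many cytosolic synthetase genes are known targets of ATF4, the transcription factor that is translated when amino acids run short or the endoplasmic reticulum is under stress, and that binds composite C/EBP-ATF sites as a dimer with other bZIP factors.

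Gene expression was measured by RNA-seq in NCI-H1581 and NCI-H1703, established human non-small cell lung cancer lines, each as a sensitive variant and as a variant made resistant to CPL304110, an inhibitor of the FGF receptors. The resistant variants, NCI-H1581R and NCI-H1703R, were raised by exposure to CPL304110 from 50 nM upwards for 4 to 6 months, to a final 2.5 µM in NCI-H1581R and 5 µM in NCI-H1703R. Each of the 4 groups had 2 replicate libraries, harvested 24 h after a change of medium, and whether that medium held the inhibitor is not stated in the sources used here. Each resistant variant is a single derived line, so a difference from its parent line describes that line, and the p-values measure the spread between these libraries only.

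The libraries held 33800389 to 40031710 counts, and the synthetase genes took 0.424% to 0.719% of them. The replicates of NCI-H1581R differed from each other more than those of the other groups, with a chi-square per degree of freedom of 103 against 24.6 to 33.9. As a check of the labelled cell type, the blood and vessel markers PTPRC and PECAM1 were at 0.449 CPM or lower in every library, and vimentin was at 2634 to 6711 CPM. The epithelial markers CDH1 and KRT8 were at 0.266 to 1.32 and 2.02 to 7.27 CPM. EPCAM was at 7.21 to 15.9 CPM in the NCI-H1581 libraries, lower in NCI-H1581R (log2 -0.90 ± 0.23, adjusted p = 0.0568, edgeR), and at 0.703 CPM or less in those of NCI-H1703. KRT18 was at 64.3 and 65.4 CPM in NCI-H1703 and at 2.88 and 2.48 CPM in NCI-H1703R (log2 -4.56 ± 0.14, adjusted p = 0.000199, edgeR), and its part in the results was not tested. CPM is the count scaled to a common library size, with TMM factors over the 8 libraries.

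The promoters were searched for sites that ATF4 and its partners are known to use. RefSeq promoters, from 250 bases before to 50 bases after a transcription start in GRCh38.p14, matched 30 of the 35 genes, with 39 promoters among them. The genes with no entry were AARS2, LARS1, VARS1, VARS2 and YARS1. The C/EBP-ATF core TGATGNAA, searched on both strands, was present in 3.617% of all 35116 promoters and in 1217 of the 27305 genes that have a promoter entry. It was present in 7 of the 10 genes with an entry among the cytosolic synthetases known as ATF4-responsive, in 0 of 6 other cytosolic synthetases (FARSA, FARSB, HARS1, KARS1, QARS1 and RARS1), and in 1 of 14 mitochondrial ones, YARS2. Counted by promoter it was in 7 of 15 (46.7%), 0 of 6 and 1 of 18 (5.56%). The 8 matches are printed within 30 bases each, 5′ to 3′ on the strand of the gene with the match in capitals, since the resistance results are set against them.
TARS1 (chr5:33440956-33440985, plus strand): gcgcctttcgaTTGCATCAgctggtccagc
GARS1 (chr7:30594834-30594863, plus strand): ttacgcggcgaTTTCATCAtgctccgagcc
IARS1 (chr9:92293692-92293721, minus strand): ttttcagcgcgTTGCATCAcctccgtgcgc
CARS1 (chr11:3057407-3057436, minus strand): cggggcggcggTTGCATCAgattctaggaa
MARS1 (chr12:57488053-57488082, plus strand): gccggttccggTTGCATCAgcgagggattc
AARS1 (chr16:70289675-70289704, minus strand): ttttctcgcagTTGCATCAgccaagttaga
NARS1 (chr18:57621804-57621833, minus strand): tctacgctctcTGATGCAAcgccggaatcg
YARS2 (chr12:32756076-32756105, minus strand): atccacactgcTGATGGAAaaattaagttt

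In 6 of the 7 cytosolic genes the match began within 33 bases of the start, at position -33 in GARS1, -13 in IARS1, -4 in MARS1, -2 in CARS1, 3 in TARS1 and 15 in NARS1, counting the start as 1 with no position 0. In AARS1 it began at -187. The cytosolic matches other than NARS1 read TTGCATCA or TTTCATCA on the strand of the gene, the reverse complement of the core, and NARS1 held the core itself. The cAMP response element TGACGTCA was in 1.848% of all promoters and in none of the members' promoters. The E-box CACGTG was in 7.256% of all promoters and in those of IARS1, CARS2, EARS2 and MARS2. These matches are descriptions of letters within 300 bases and do not show that a factor binds.

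The first comparison asked which synthetase genes differed between NCI-H1581R and its sensitive parent. A gene is called when its adjusted p in edgeR's quasi-likelihood test (Benjamini-Hochberg over 18203 genes) was under 0.1. Of the 35 genes 8 were called (22.9%), against 15.1% of all genes tested. In bulk RNA a change in some of the cells and a change in all of them cannot be told apart. Higher in NCI-H1581R were 6 cytosolic genes, CARS1, GARS1, MARS1, TARS1, IARS1 and SARS1, where 7.63% of all genes were higher. Lower were KARS1, also cytosolic, and the mitochondrial CARS2, where 7.44% of all genes were lower. Among the mitochondrial enzymes 1 of 16 was called (6.25%).

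CARS1, the cysteinyl-tRNA synthetase, was at 47.3 and 52.6 CPM in NCI-H1581 and at 82.9 and 106.9 CPM in NCI-H1581R. Its log2 fold change was 0.94 ± 0.20 (SE), or 1.91-fold (adjusted p = 0.0305, edgeR). CARS2, which charges cysteine tRNA in mitochondria, moved the other way. It was at 70.33 and 70.29 CPM in NCI-H1581 and at 36.2 and 28.0 CPM in NCI-H1581R, a log2 fold change of -1.12 ± 0.19 (SE) with an adjusted p of 0.0132 in edgeR. The replicates of neither gene overlapped between variants, which held for all but 14 of the 35 members, and the share over all genes was not computed.

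GARS1, the glycyl-tRNA synthetase, rose from 130.9 and 145.9 CPM to 248 and 254 CPM, a log2 fold change of 0.87 ± 0.17 (SE), or 1.83-fold (adjusted p = 0.0218, edgeR). TARS1, the threonyl-tRNA synthetase, was at 498 and 522 CPM in NCI-H1581 and at 804.5 and 805.2 CPM in NCI-H1581R, 1.59-fold higher (log2 0.67 ± 0.18, adjusted p = 0.0672, edgeR). Both act outside the complex, and for both all resistant libraries lay above all sensitive ones. SARS1, which charges serine tRNA and also the tRNA for selenocysteine, was at 148.4 and 148.6 CPM against 210.5 and 210.8 CPM, 1.43-fold higher (log2 0.51 ± 0.15). Its adjusted p of 0.0962 in edgeR stood at the edge of the threshold, and the call was lost with RLE normalisation, with no filter on low counts and with legacy quasi-dispersions.

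Within the multisynthetase complex 3 of 7 genes were called (42.9%, against 15.1% of all genes tested), and they did not move together. MARS1, the methionyl-tRNA synthetase, was at 255 and 268 CPM in NCI-H1581 and at 424 and 452 CPM in NCI-H1581R, 1.68-fold higher (log2 0.75 ± 0.17, adjusted p = 0.0386, edgeR). IARS1, which charges isoleucine tRNA, was at 268 and 291 CPM against 439 and 423 CPM, 1.55-fold higher (log2 0.63 ± 0.17, adjusted p = 0.0676, edgeR). KARS1, the lysyl-tRNA synthetase, fell from 385 and 361 CPM to 257 and 192 CPM, a log2 fold change of -0.72 ± 0.20 (adjusted p = 0.0726, edgeR). The other members of the complex were not called, with log2 fold changes from -0.30 in QARS1 to 0.31 in EPRS1. MARS1 overlaps exons of DDIT3 and ARHGAP9 on the opposite strand, and whether the counting used strand is not given in the sources used here. DDIT3 was at 12.3 to 64.7 CPM over the 8 libraries and was higher in both resistant variants. The part of the overlap in the MARS1 counts was not tested.

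**Figure D1:**
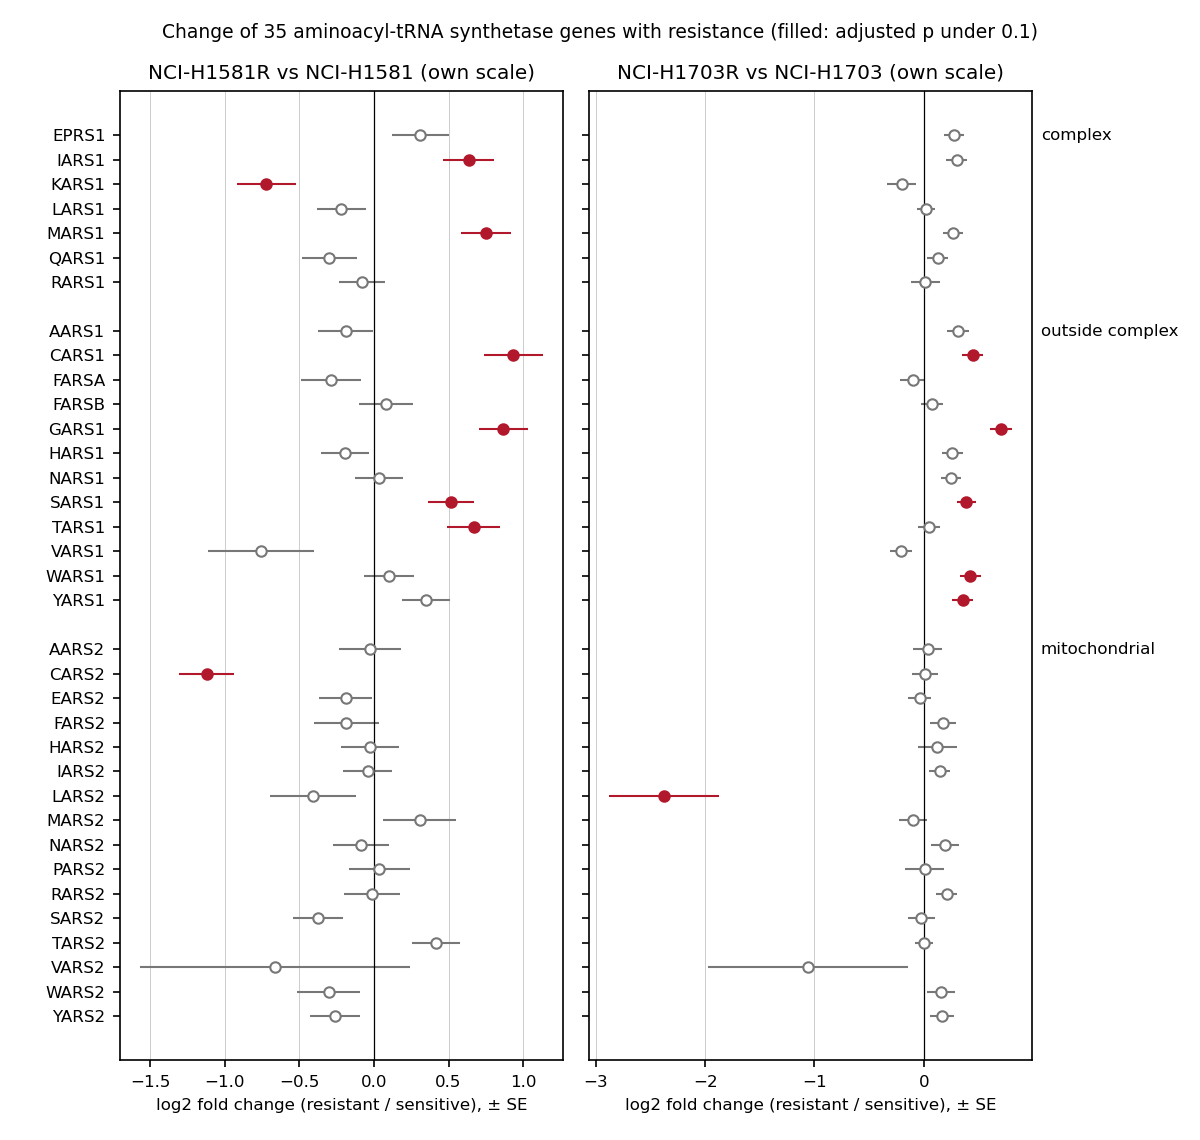
Log2 fold change of each synthetase gene between the resistant and the sensitive variant of NCI-H1581 (left) and of NCI-H1703 (right), with bars of 1 SE from edgeR and filled points for adjusted p under 0.1; the panels have separate scales. In NCI-H1581R 6 cytosolic genes lie to the right and KARS1 and CARS2 to the left, and in NCI-H1703R 5 cytosolic genes lie to the right and LARS2, at -2.37, far to the left.

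The cytosolic genes known as ATF4-responsive gave 6 of the calls, all higher, out of 13 genes (46.2%, where 7.63% of all genes were higher). Their median log2 fold change was 0.35. The other 6 cytosolic genes gave 1 call, KARS1, lower (16.7%, where 7.44% of all genes were lower), with a median of -0.24. The median over all 19 cytosolic genes was 0.08, over the 16 mitochondrial genes -0.14, and over all genes tested 0.04. Summed over the 13 ATF4-responsive members, the level was 2676 and 2772 CPM in NCI-H1581 and 3561 and 3635 CPM in NCI-H1581R. The sum over the other 6 was 1113 and 1032 CPM against 926 and 733.4 CPM, and over the mitochondrial genes 699.2 and 731 CPM against 663.6 and 636.9 CPM. The ATF4-responsive sum was thus higher in both resistant libraries and the other sums lower.

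The promoter match is not a separate division, since all 7 matched cytosolic genes are among the ATF4-responsive ones. Of the 7 cytosolic genes with a C/EBP-ATF core match 5 were called (71.4%, against 15.1% of all genes tested), all higher. Their median log2 fold change was 0.67. The other matched genes, NARS1 (log2 0.03) and AARS1 (log2 -0.19), were not called. Of the 9 cytosolic genes with a promoter entry and no match 2 were called (22.2%), SARS1 higher and KARS1 lower, with a median of -0.08. VARS1 and YARS1 have no entry, and VARS1 was at 53.5 and 23.5 CPM in NCI-H1581R against 70.0 and 60.9 CPM in NCI-H1581. Both of its resistant libraries lay below the sensitive ones, and the gap between the resistant replicates was wider than that between the sensitive ones.

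**Figure D2:**
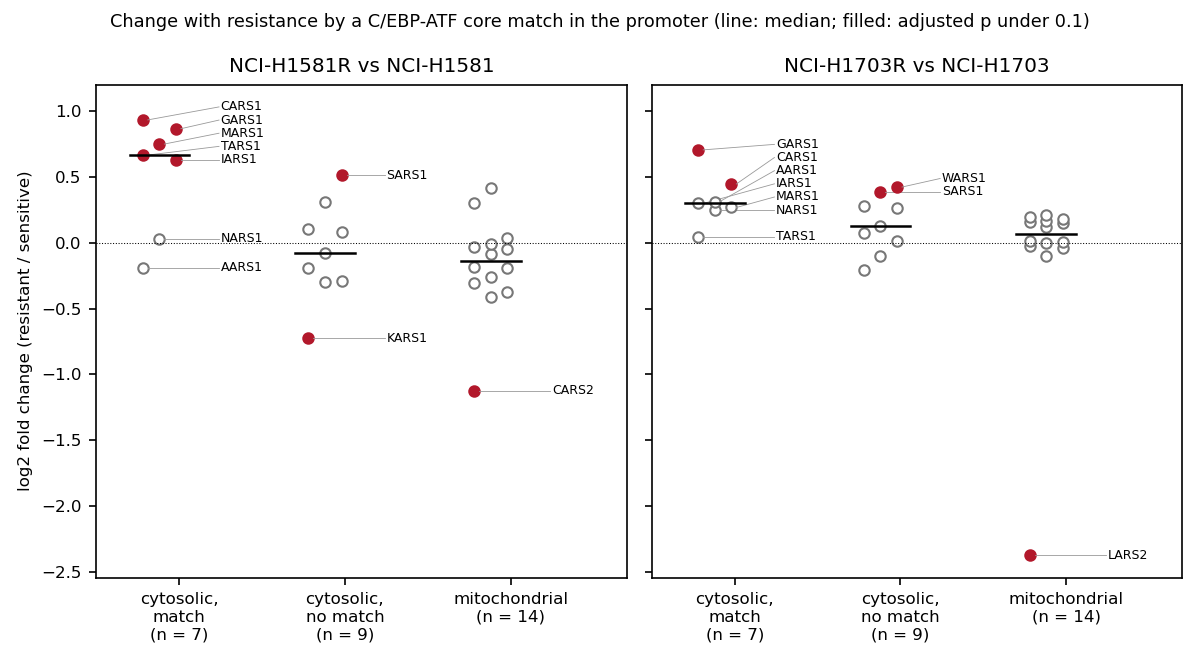
Log2 fold change with resistance for the cytosolic genes with a C/EBP-ATF core match in the promoter, the cytosolic genes with a promoter entry and no match, and the mitochondrial genes with an entry; lines are medians and filled points have an adjusted p under 0.1. In NCI-H1581R the matched genes have a median of 0.67 and the unmatched cytosolic genes -0.08, and in NCI-H1703R the medians are 0.30 and 0.13.

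The calls in NCI-H1581R depended on both sensitive libraries and on offsets for GC content and length, which were fitted together. Without either NCI-H1581 library no member was called, and 1122 to 1160 genes were called over the whole table. Without NCI-H1581R replicate 1, 16 members were called, 9 higher and 7 lower, with 5186 genes called over the whole table against 2743 with all libraries, and the cytosolic median was -0.03. Without a sensitive library the log2 fold change of CARS1 was still 0.84 or 1.01, against 0.94 with all libraries. With the offsets, CARS1, KARS1 and CARS2 were still called, and GARS1, IARS1, MARS1, SARS1 and TARS1 were not. MARS1 (log2 0.70) and SARS1 (0.50) kept nearly the same fold, while GARS1 (0.51), TARS1 (0.42) and IARS1 (0.35) had smaller ones, and the median of the cytosolic genes was -0.11, a change of sign. The genes that were higher had a median GC content of 47.6%, the other cytosolic genes 51.3%.

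The second comparison was that of NCI-H1703R with NCI-H1703. Of the 35 genes 6 were called (17.1%), against 14.7% of all genes tested. Higher were 5 cytosolic genes, all of them outside the complex: GARS1, CARS1, WARS1, SARS1 and YARS1, where 7.06% of all genes were higher. Lower was the mitochondrial LARS2, where 7.67% of all genes were lower. The changes of the cytosolic genes were small, from 1.28-fold to 1.63-fold.

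GARS1 was at 520 and 502 CPM in NCI-H1703 and at 782 and 852 CPM in NCI-H1703R, a log2 fold change of 0.71 ± 0.10 (SE), or 1.63-fold (adjusted p = 0.0133, edgeR). CARS1 was at 75.1 and 71.4 CPM against 91.6 and 104.1 CPM, 1.36-fold higher (log2 0.45 ± 0.10, adjusted p = 0.0455, edgeR). SARS1 was at 185.9 and 182.0 CPM against 228 and 244 CPM, 1.31-fold higher (log2 0.39 ± 0.09, adjusted p = 0.0488, edgeR). These 3 genes were the ones called higher in both lines, and in each line all their resistant libraries lay above all sensitive ones. Such separation was common with 2 libraries per group. Of the 35 members 9 lay all higher and 12 all lower in NCI-H1581R, and 17 and 5 in NCI-H1703R. The shares of all genes called higher in both lines or so separated were not computed.

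WARS1, the tryptophanyl-tRNA synthetase, which is also known as an interferon-induced gene, was at 114.6 and 116.8 CPM in NCI-H1703 and at 142.4 and 161.8 CPM in NCI-H1703R (log2 0.43 ± 0.10, adjusted p = 0.0524, edgeR). YARS1, the tyrosyl-tRNA synthetase, was at 252.9 and 254.4 CPM against 301.0 and 335.2 CPM (log2 0.36 ± 0.09, adjusted p = 0.0788, edgeR). Neither was called in NCI-H1581R, where their log2 fold changes were 0.10 and 0.35.

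LARS2, the mitochondrial leucyl-tRNA synthetase, showed the largest change with resistance of any member in either line. It had 500 and 477 counts in NCI-H1703 and 165 and 33 counts in NCI-H1703R, or 13.5 and 14.3 CPM against 4.36 and 0.871 CPM. The log2 fold change was -2.37 ± 0.50 (SE), with an adjusted p of 0.044 in edgeR. The resistant replicates themselves differed widely, and leaving out 1 library at a time moved the value from -3.95 to -1.64. In NCI-H1581 LARS2 was at 16.9 and 24.1 CPM and in NCI-H1581R at 18.7 and 12.2 CPM, with groups that overlapped. The cytosolic LARS1 hardly differed in NCI-H1703R, with a log2 fold change of 0.02 ± 0.08.

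**Figure D3:**
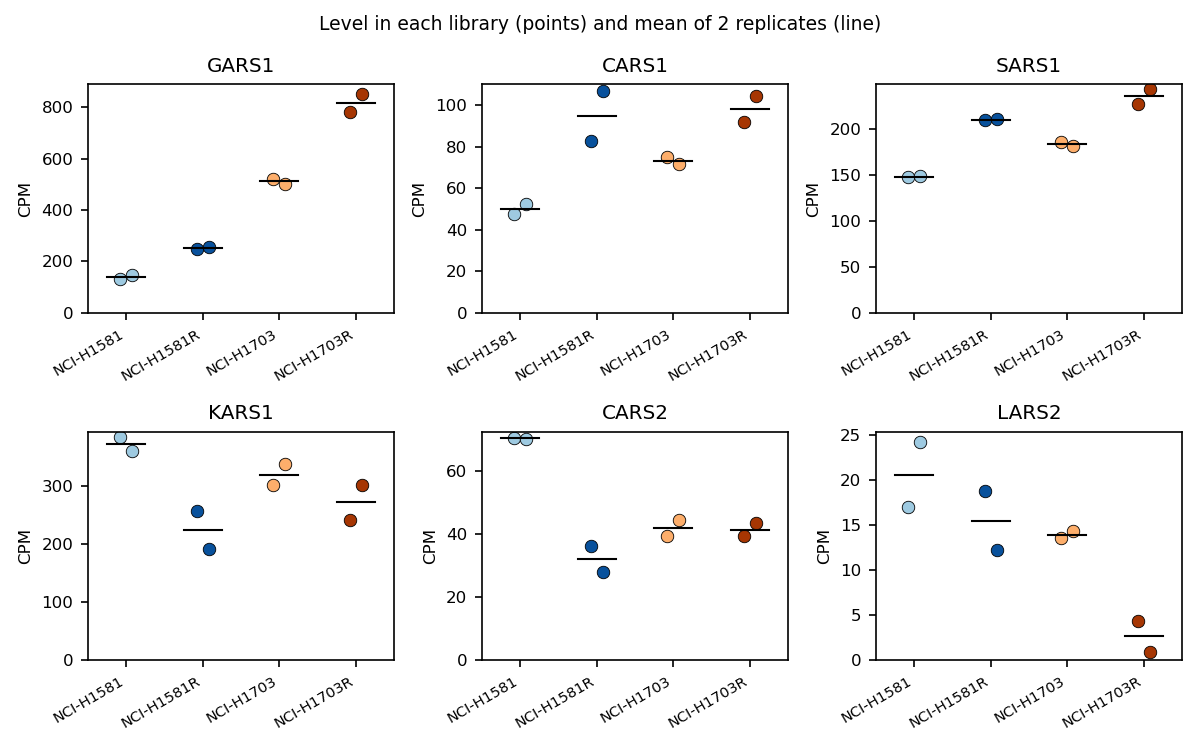
Level of 6 synthetase genes in CPM, with 1 point per library and a line at the mean of 2 replicates, on axes that start at 0. GARS1, CARS1 and SARS1 are higher in both resistant variants, KARS1 and CARS2 are lower in NCI-H1581R, and LARS2 is lowest in NCI-H1703R, at 4.36 and 0.871 CPM.

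None of the 7 complex members was called in NCI-H1703R, but the count depended strongly on the fit. With the replicate number as a block 15 of the 35 genes were called, 12 higher and 3 lower, while the calls over the whole table rose from 2683 to 6357 of 18203 genes. Among the 15 were EPRS1, IARS1 and MARS1 higher and KARS1 lower in the complex. The adjusted p with the block was 0.00426 for IARS1 (log2 0.30), 0.00661 for EPRS1 (log2 0.28) and 0.00826 for MARS1 (log2 0.27). DESeq2 called 11 of the 35, 10 of them higher, and 3037 genes over the whole table, and EPRS1, IARS1 and MARS1 were among these. One fit of all 8 libraries called 2, GARS1 and LARS2, and without either NCI-H1703 library no member was called while 274 to 293 genes were called over the whole table. Without NCI-H1703R replicate 2 only 3 were called, GARS1, LARS2 and VARS2, and CARS1, SARS1, WARS1 and YARS1 were lost. With GC and length offsets SARS1, WARS1 and YARS1 were no longer called.

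The median log2 fold change in NCI-H1703R was 0.26 over the cytosolic genes, 0.02 over the mitochondrial genes and 0 over all genes tested. It was 0.30 over the 13 ATF4-responsive genes, of which 5 were called (38.5%, against 14.7% of all genes tested). Over the other 6 cytosolic genes, of which none was called, the median was 0.04. Summed over the ATF4-responsive members the level was 4436 and 4412 CPM in NCI-H1703 and 5019 and 5360 CPM in NCI-H1703R. The sum over the other cytosolic genes overlapped between variants, at 1054 and 1146 CPM against 1003 and 1154 CPM. The mitochondrial sum was 759.8 and 776.3 CPM against 777.1 and 802.6 CPM. Of the 7 genes with the promoter match 2 were called (28.6%), GARS1 and CARS1, and of the 9 with no match 2 (22.2%), SARS1 and WARS1. DESeq2 called 6 of the 7 matched genes and 3 of the 9 unmatched ones, and the replicate block 6 and 5. Over the whole table these fits called 3037 and 6357 of 18203 genes.

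The difference between the lines was tested as the interaction of line and resistance. Of the 35 genes 3 were called (8.57%), against 15.4% of all genes tested, with 6.93% positive and 8.47% negative. CARS2 was positive, with a change 1.11 ± 0.22 (log2, SE) higher in NCI-H1703 than in NCI-H1581 (adjusted p = 0.014, edgeR): it fell in NCI-H1581R and stood at 39.3 and 44.6 CPM in NCI-H1703 and 39.3 and 43.5 CPM in NCI-H1703R. TARS1 was negative (log2 -0.64 ± 0.17, adjusted p = 0.0486, edgeR), with 593 and 630 CPM in NCI-H1703 and 605 and 633 CPM in NCI-H1703R. MARS1 was negative as well (log2 -0.50 ± 0.16, adjusted p = 0.0981, edgeR). For LARS2 the interaction was -1.99 ± 0.66 with an adjusted p of 0.102 in edgeR, so a difference between the lines was not called, and for KARS1 it was not called either. Leaving out either NCI-H1581 library, either NCI-H1703 library or NCI-H1703R replicate 2 left CARS2 as the only call, leaving out NCI-H1703R replicate 1 left CARS2 and LARS2, and 10 and 6 members were called without NCI-H1581R replicates 1 and 2, when 4141 and 3388 genes were called over the whole table against 2803. GARS1, CARS1 and SARS1 were not called, which does not show that their changes were alike.

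Genes that neighbour the called members on the chromosome were set beside them, a choice made after their values were seen. Neighbours were protein-coding genes within 1 Mb with a mean of at least 1 CPM. KARS1 (chr16:75627474-75648643, minus strand; GENCODE v44, GRCh38) had 15 such neighbours, and every one had a negative log2 fold change in NCI-H1581R, from -10.8 to -0.33 with a median of -0.77, close to that of KARS1; 7 of them were called, all lower. CARS2 (chr13:110641412-110713603, minus strand) had 7 neighbours, 3 of them called, all lower, with a median of -0.56. TARS1 (chr5:33440696-33468091, plus strand) had 5, 3 of them called, all higher, with a median of 0.62 against 0.67 for TARS1 itself. LARS2 (chr3:45388561-45554726, plus strand) had 17 neighbours in NCI-H1703R, 5 called, all lower, with a median of -0.33. Changes of these 4 members thus came with changes of the same sign nearby, and DNA copy number was not analysed here.

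The neighbours of the other members that were higher had medians nearer to 0 than those of these 4 members. In NCI-H1581R their medians were -0.17 around CARS1 (13 genes), -0.13 around IARS1 (13 genes), -0.05 around MARS1 (37 genes), -0.04 around SARS1 (28 genes) and 0.19 around GARS1 (8 genes). Of the neighbours of GARS1 2 were called, both higher, around CARS1 3 and around IARS1 1 were called, all lower, and around MARS1 5 (2 higher) and SARS1 5 (1 higher). In NCI-H1703R the medians ran from -0.21 around WARS1 (12 genes) to 0.08 around CARS1. There 5 neighbours of WARS1 were called, all lower, although WARS1 itself was higher. Around SARS1 7 of 28 were called (2 higher), around YARS1 4 of 30 (1 higher), around CARS1 2 of 13 (1 higher) and around GARS1 1 of 8, lower. The members themselves had changes from 0.36 to 0.94 in these comparisons.

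The amino acid response genes, a list of 16 with the sensor kinase EIF2AK4, ATF4 and genes known as its targets, were counted beside the synthetases. In NCI-H1581R 9 of 16 were called (56.2%), all higher, where 15.1% of all genes were called and 7.63% were higher. The median of the list was 1.06 on the log2 scale, against 0.04 over all genes. In NCI-H1703R 10 were called (62.5%), 9 higher and ATF5 lower (log2 -0.94 ± 0.09), with a median of 0.44. Of all genes 14.7% were called there and 7.06% were higher, with a median of 0. ATF4 mRNA was at 203 and 221 CPM in NCI-H1581 and 481 and 537 CPM in NCI-H1581R (log2 1.27 ± 0.18, adjusted p = 0.00662, edgeR). In NCI-H1703R it was not called (log2 0.30 ± 0.09, adjusted p = 0.109, edgeR), although the block and DESeq2 called it. ASNS, the asparagine synthetase and a well known ATF4 target, was higher in both lines (log2 1.64 ± 0.20 and 0.43 ± 0.09). DDIT3, which encodes the bZIP factor CHOP, was higher in both as well (log2 1.27 ± 0.29 and 1.24 ± 0.16). The largest increase among the synthetases in NCI-H1581R, 0.94 in CARS1, was smaller than those of ATF4, ASNS and DDIT3 there. In NCI-H1703R the largest, 0.71 in GARS1, was above those of ATF4 (0.30) and ASNS (0.43) and below that of DDIT3 (1.24). The part of ATF4 in the synthetase changes was not tested.

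The other partners of the synthetases are set beside 15.1% of all genes called in NCI-H1581R and 14.7% in NCI-H1703R. The scaffolds AIMP1, AIMP2 and EEF1E1 were not called in either resistant variant, with log2 fold changes of -0.32 to 0.24 in NCI-H1581R and 0.11 to 0.22 in NCI-H1703R, where the replicate block called AIMP2. Of 11 cytosolic genes that mature, export, proofread or carry tRNA, 1 was called in NCI-H1581R (9.09%) and 2 in NCI-H1703R (18.2%). XPOT, the exportin that carries tRNA out of the nucleus, was called in both: it was at 224 and 246 CPM against 372 and 411 CPM in the NCI-H1581 pair (log2 0.75 ± 0.17, adjusted p = 0.0443, edgeR) and at 295 and 305 CPM against 416 and 425 CPM in the NCI-H1703 pair (log2 0.52 ± 0.09, adjusted p = 0.0261, edgeR). The subunit EEF1D of the factor that recharges EEF1A with GTP was lower in NCI-H1703R (log2 -0.36 ± 0.09). Of 11 mitochondrial translation genes none was called in NCI-H1581R, and 3 in NCI-H1703R (27.3%), where the elongation factor GFM1 was higher (log2 0.56 ± 0.10) and the ribosome recycling factor GFM2 (log2 -0.47 ± 0.09) and GTPBP3, which modifies mitochondrial tRNA (log2 -0.49 ± 0.11), were lower.

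The largest differences among the synthetases lay between the cell lines and not between variants. In sensitive NCI-H1703 against sensitive NCI-H1581, 27 of the 35 genes were called (77.1%), against 62.9% of all genes tested. Of these 17 were higher in NCI-H1703 and 10 lower, where 32.5% and 30.4% of all genes were. Among the cytosolic genes 12 were higher and 4 lower, with a median log2 fold change of 0.55, and among the mitochondrial genes 5 were higher and 6 lower, with a median of 0.03; the median over all genes was 0.04. This comparison uses the same sensitive libraries as the resistance comparisons.

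VARS1, the valyl-tRNA synthetase, was at 70.0 and 60.9 CPM in NCI-H1581 and at 558 and 540 CPM in NCI-H1703 (log2 3.07 ± 0.10, adjusted p = 4.6e-07, edgeR). GARS1 was next among the cytosolic genes (log2 1.88 ± 0.10), at 130.9 and 145.9 CPM against 520 and 502 CPM. HARS1, NARS1, EPRS1 and RARS1 followed, with log2 fold changes of 1.49, 1.43, 1.33 and 1.12. WARS1 (log2 -0.96 ± 0.09), QARS1 (log2 -0.77 ± 0.10) and AARS1 (log2 -0.66 ± 0.10) were lower in NCI-H1703, and FARSB was too (log2 -0.35 ± 0.10). All 3 complex scaffolds were higher in NCI-H1703, AIMP1 by 1.29, AIMP2 by 0.82 and EEF1E1 by 0.58 on the log2 scale.

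The mitochondrial genes were more evenly divided between the lines. VARS2 had 20 and 6 counts in NCI-H1581 and 549 and 251 counts in NCI-H1703 (log2 4.98 ± 0.61, adjusted p = 0.000312, edgeR). In the resistant variants it had 10 and 7 counts in NCI-H1581R and 12 and 389 counts in NCI-H1703R, so a single NCI-H1703R library fell to the level of the NCI-H1581 libraries while the other stayed high. VARS1 and VARS2 both lie in the MHC region of chromosome 6, for which GRCh38 carries alternate haplotypes, and how the quantification treated these is not given in the sources used here. YARS2 (log2 0.76), RARS2 (0.69), HARS2 (0.66) and TARS2 (0.57) were higher in NCI-H1703 too. PARS2, the mitochondrial prolyl-tRNA synthetase, was lowest, at 19.3 and 16.1 CPM against 7.65 and 8.82 CPM (log2 -1.10 ± 0.18), followed by CARS2 (-0.75), SARS2 (-0.64), LARS2 (-0.58), MARS2 (-0.55) and NARS2 (-0.47). HARS2 begins within HARS1 on the opposite strand, and SARS2 shares 1492 exonic bases with another protein-coding model on the same strand. VARS2 shares 4073 exonic bases with a long non-coding RNA model on the same strand. The counts of these genes are therefore less certain, and the part of the overlaps was not tested.

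Levels of different genes were compared per kilobase of the MANE Select transcript, a length chosen after the values were seen. The median over the cytosolic genes was 62.3, 88.8, 96.1 and 111.4 CPM per kilobase in NCI-H1581, NCI-H1581R, NCI-H1703 and NCI-H1703R, and over the mitochondrial genes 9.29, 8.88, 9.67 and 10.8. The ratio of these medians was 6.71, 10.0, 9.94 and 10.4 in the same order. With the median length of the coding transcript models in place of the MANE length the ratios were 5.34, 7.34, 8.92 and 8.36. Every cytosolic gene lay above the mitochondrial median in each group with the MANE length, and with the median coding length FARSB lay below it in NCI-H1703 and NCI-H1703R. With the longest transcript the ratios were 6.28, 6.71, 9.6 and 11.1, so the rise from NCI-H1581 to NCI-H1581R depended on the length used.

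**Figure D4:**
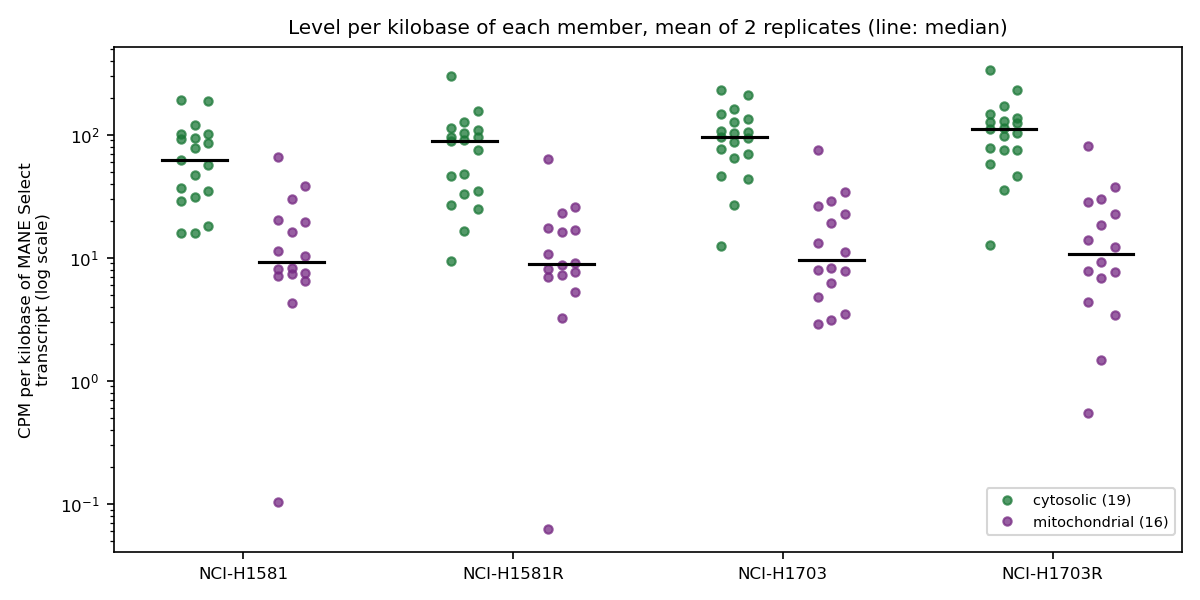
Level of each synthetase gene per kilobase of MANE Select transcript on a log axis, as the mean of 2 replicates in each group, with lines at the medians of the 19 cytosolic and 16 mitochondrial genes. The cytosolic median is 62.3 to 111.4 and the mitochondrial median 8.88 to 10.8 CPM per kilobase, and the low mitochondrial points are VARS2 in the NCI-H1581 groups and LARS2 in NCI-H1703R.

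By the MANE length TARS1 was the highest member in NCI-H1581 (190.8 ± 6.25 CPM per kilobase, SD, n = 2), in NCI-H1581R (301.2 ± 0.181) and in NCI-H1703 (229.0 ± 9.89), and GARS1 was the highest in NCI-H1703R (335.3 ± 20.4). With the median coding length and with the longest transcript TARS1 was the highest in NCI-H1703R too, and GARS1 ranked 5 and 9. KARS1 was second in NCI-H1581 (187.3 ± 8.38), within the spread of TARS1, and in NCI-H1581R stood below MARS1 (112.8 ± 23.3 against 156.6 ± 7.06) and within its spread of YARS1 (127.0 ± 3.29). IARS2, which charges isoleucine tRNA in mitochondria, was the highest mitochondrial member in every group, from 63.5 to 80.8 CPM per kilobase, but with the median coding length CARS2 was above it in NCI-H1581 (113.4 against 65.8). The lowest was VARS2 in the NCI-H1581 and NCI-H1581R groups (0.104 and 0.062) and LARS2 in NCI-H1703 and NCI-H1703R (2.91 and 0.547).

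Pairs of enzymes for the same amino acid were set side by side on this scale. The ratio of CARS1 to CARS2 was 0.477 in NCI-H1581 and 1.99 in NCI-H1581R, so the order of the pair was reversed, as it was with the longest transcript, and it was 1.17 in NCI-H1703 and 1.59 in NCI-H1703R. With the median coding length CARS2 was above CARS1 in both NCI-H1581 variants (113.4 against 18.8, and 51.8 against 35.6 CPM per kilobase). LARS1 exceeded LARS2 by 15.9 times in NCI-H1703 and by 83.8 times in NCI-H1703R, against 6.76 and 7.68 times in the NCI-H1581 pair. The value of 83.8 is uncertain, since LARS2 in NCI-H1703R was at 0.547 ± 0.516 CPM per kilobase (SD, n = 2), from 165 and 33 counts. SARS1 exceeded SARS2 by 2.58 and 4.78 times in NCI-H1581 and NCI-H1581R and by 5.0 and 6.66 times in NCI-H1703 and NCI-H1703R. IARS1 and IARS2 had similar levels by the MANE length, with ratios from 0.947 to 1.56. With the longest transcript IARS2 was above IARS1 in every group. The values were 65.84 against 32.33 CPM per kilobase in NCI-H1581, 63.52 against 49.87 in NCI-H1581R, 74.48 against 54.35 in NCI-H1703 and 80.82 against 65.53 in NCI-H1703R. By the MANE length the 16 pairs, in which FARSA and FARSB were each set against FARS2, were otherwise led by the cytosolic gene in each group. With the median coding length FARS2 was above FARSB in NCI-H1703 (16.63 against 12.38) and NCI-H1703R (18.42 against 12.75).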

How the data were processed

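The authors sequenced total RNA, quantified reads with Salmon against GRCh38, imported transcripts with tximport and deposited estimated counts per gene, without normalisation. The processing notes also name cutadapt. Salmon version, transcript annotation, tximport option and strandedness are not given in the sources used here. Estimated counts share reads between similar transcripts, which makes genes with overlapping models less certain.

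Samples were grouped by the labels. Counts of whole numbers were tested with edgeR 4.0.16 in R 4.3.3 (TMM, quasi-likelihood, two-sided, bias-adjusted quasi-dispersions), each line on its own 4 libraries and the interaction on all 8. This tool's default, legacy quasi-dispersions, was run first (2593 and 2626 genes called) and replaced by the bias-adjusted ones (2743 and 2683), which match an earlier analysis of these data; the default is kept as an alternative. DESeq2 1.42.0 was an alternative. The code was tested on simulated counts. Any member could be named; outside genes were named by a fixed rule, except GTPBP3, which was chosen after its value was seen. The members and lists were chosen with earlier results of these data known.

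The growth protocol gives the second replicate as a repeat of the seeding, and the replicate number was fitted as a block. Same-numbered libraries correlated at 0.0639 in NCI-H1581 and 0.217 in NCI-H1703 over 13020 genes (deviations from the group mean). GENCODE v44 gave symbols, positions and lengths.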

Additional observations from a re-analysis of the deposited data

Results flagged for a closer look

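The change with resistance differed between the lines for 3 synthetase genes by the interaction test of edgeR, given as the log2 change in NCI-H1703 minus that in NCI-H1581. For CARS2 the difference was 1.11 (adjusted p = 0.014), and it was called in every alternative and in all 8 fits that left out 1 library. For TARS1 it was -0.64 (adjusted p = 0.0486), and it was lost with GC and length offsets and in 6 of the 8 fits that left out 1 library. For MARS1 it was -0.50 (adjusted p = 0.0981), and it was lost at a threshold of 0.05, with RLE normalisation, with no filter on low counts, with the replicate block across lines (adjusted p = 0.13), with legacy quasi-dispersions, with GC and length offsets and in 6 of the 8 fits that left out 1 library. No outlier test was possible with 2 replicates per group.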

How the results depend on the processing

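With 2 replicates per group the calls rested on few libraries. Leaving out 1 library gave 0 to 16 called members in NCI-H1581R, 0 to 6 in NCI-H1703R, 1 to 10 in the interaction and 23 to 27 between the sensitive lines. The count of 0 came from leaving out either sensitive library of the line, and the left-out group's lone library is then assumed to vary like the others. The cytosolic median in NCI-H1581R then ran from -0.0324 to 0.112. No called member changed sign in any alternative. Alternatives were recomputed for called members, the counts and the medians.

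In NCI-H1581R, 8 members were called, 4 at a threshold of 0.05 and 3 with GC and length offsets, which moved the cytosolic median to -0.11 and the mitochondrial median to -0.32. In NCI-H1703R, 6 were called, 11 with DESeq2, 11 when every library had to reach 10 counts, 2 in one fit of all 8 libraries and 3 with the offsets. Over the whole table these fits called 2683, 3037, 3185 (of 13123 tested), 1730 and 2085 genes in the same order. In the interaction, 3 were called, 7 with DESeq2 and 5 when every library had to reach 10 counts. The whole table then gave 2803, 3541 and 2781 (of 11943 tested) called genes. Between the sensitive lines the offsets moved the cytosolic median to 0.35. The ratio of cytosolic to mitochondrial medians per kilobase, 5.34, 7.34, 8.92 and 8.36 in NCI-H1581, NCI-H1581R, NCI-H1703 and NCI-H1703R with the median coding length, was 6.71, 10.0, 9.94 and 10.4 with the MANE length and 6.28, 6.71, 9.6 and 11.1 with the longest transcript. The causes were not tested. The offsets, legacy quasi-dispersions, the block within each line and the MANE length were chosen after seeing the data.

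With the replicate number as a block, 9 members were called in NCI-H1581R, 15 in NCI-H1703R, 27 between the sensitive lines and 2 in the interaction. Over the whole table the block called 3293, 6357, 11409 and 2526 genes in the same order, against 2743, 2683, 11444 and 2803 without it. The block changed no other member's call than VARS1 (NCI-H1581R), MARS1 (interaction) and the 9 further genes in NCI-H1703R. Across lines the same-numbered libraries showed no deviation in the same direction. Their correlations were all negative, from -0.289 (NCI-H1581R and NCI-H1703R) to -0.0265. A block within each line called 3 members in the interaction.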
